A study of Mus musculus with 12 samples.

Results

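The interaction of time and genotype was measured in mouse liver: the difference between ZT14 and ZT2 in mice that overexpress the transcriptional repressor E4BP4 (TG), less the same difference in wild-type mice (WT). ZT counts hours from lights on, which places ZT2 near the start of the light period and ZT14 near the start of darkness. All 12 libraries of the series enter the contrast, 3 in each of the 4 groups WT at ZT2, WT at ZT14, TG at ZT2 and TG at ZT14. Of 48440 genes in the deposited tables, 15244 had enough reads to be tested. All animals were C57BL/6 males, 8 weeks old, on chow, under 12 hours of light and 12 hours of darkness, and no treatment is recorded. The TG animals carried a transgene that raises E4BP4 in the liver. The labels name no promoter, line or founder, and it is not stated whether each sample came from its own animal. The p-values therefore reflect the spread among the sequenced samples, which may be partly technical.

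E4BP4, the product of Nfil3, binds D-box elements in DNA and represses transcription there. The PAR bZIP proteins DBP, TEF and HLF bind the same elements and activate, and the rhythm of the activators against E4BP4 is one of the interlocked loops of the circadian clock. In liver, clock output and feeding together set daily rhythms in fat synthesis, bile acid synthesis and drug metabolism. A gene whose expression differs between ZT2 and ZT14 to the same degree in both genotypes has an interaction of 0 on the log2 scale, even when its level differs between genotypes at both times. A negative value means that the change towards ZT14 was more downward, or less upward, in TG than in WT.

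Promoter sequences show where D-box letters lie in genes whose interaction is described here. The forms TTATGTAA, its reverse complement TTACATAA, and TTACGTAA, which reads the same on both strands, were searched on both strands in RefSeq promoters (GRCm38.p6, 250 bases before to 50 after each start). Of 32851 promoters of that length, 347 (1.06%) held a match. Of 62 genes searched (20 genes with the lowest interaction p, predicted genes left out, plus genes of the clock, its bZIP factors and its outputs), 52 had an entry, with 73 promoters in all. Per3, a Period family clock repressor, and Coq10b, a coenzyme Q binding protein, held matches, which are in capitals. Bases before the start are printed, 5′ to 3′. The stretch of Per3 is chr4:151044666-151044915 on the minus strand, with matches that begin 205 and 158 bases before the start. The stretch of Coq10b is chr1:55052520-55052769 on the plus strand, with 1 match that begins 162 bases before the start. Ppard, the gene with the lowest interaction p, is printed beside them because its searched window held none of these letters. For Ppard the printed stretch, chr17:28232504-28232699 on the plus strand, has 196 bases and is shorter than the window, since it stops before the first base that an exon of the gene covers in the GENCODE annotation.
Per3: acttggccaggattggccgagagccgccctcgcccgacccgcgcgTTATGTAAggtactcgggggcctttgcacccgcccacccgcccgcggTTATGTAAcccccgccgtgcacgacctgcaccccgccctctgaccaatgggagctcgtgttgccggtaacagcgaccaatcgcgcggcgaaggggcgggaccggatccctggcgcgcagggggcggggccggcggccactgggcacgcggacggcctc
Coq10b: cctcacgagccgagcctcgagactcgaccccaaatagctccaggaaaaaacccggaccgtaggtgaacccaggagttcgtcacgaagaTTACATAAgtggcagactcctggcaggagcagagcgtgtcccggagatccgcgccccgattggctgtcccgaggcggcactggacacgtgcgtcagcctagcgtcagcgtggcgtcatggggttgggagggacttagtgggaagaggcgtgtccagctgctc
Ppard: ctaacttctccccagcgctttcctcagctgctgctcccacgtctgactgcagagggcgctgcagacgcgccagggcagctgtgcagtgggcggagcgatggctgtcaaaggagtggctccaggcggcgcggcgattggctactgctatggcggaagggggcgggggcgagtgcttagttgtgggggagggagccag
A match is a description of letters and was not tested as a binding site.

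The libraries held 16035121 to 23981021 gene reads, of which 9.79% to 11.9% lay in introns. Nfil3 itself (ENSMUSG00000056749) stood at 48.8, 29.4 and 37.6 CPM (read counts scaled to a common library size) in the WT libraries at ZT2 and at 28.1, 40.4 and 24.6 CPM at ZT14. In TG it stood at 71.1, 69.8 and 62.6 CPM at ZT2 and at 63.8, 93.9 and 77.9 CPM at ZT14, so every TG library lay above every WT library. The 14 hepatocyte marker genes measured summed to 83300 to 109000 CPM per library, and none of them was at 0. In a principal component analysis the second component (15.51% of variance) separated replicate 2 of the TG group at ZT2 (-35.24) and replicate 3 of the TG group at ZT14 (-36.01) from the other 10 libraries (2.29 to 14.57). In the same 2 libraries the 37 tested genes with higher expression in male than in female liver had the lowest mean log2 levels of all 12, at -0.54 and -1.08 relative to the mean over libraries. The 21 tested genes with higher expression in female liver had their highest means there, at 0.73 and 0.93, with the next library at 0.29. Cyp2a4, a steroid hydroxylase of female mouse liver with a near-identical copy in Cyp2a5, stood at 27.6 and 23.0 CPM in the 2 libraries and at 0 to 1.39 CPM in the others. The labels give all samples as male, and in every library Xist had 0 to 2 reads while Ddx3y, a Y-linked gene, had 999 to 1518. Values without these 2 libraries are given for the main lists.

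Genes that changed with time mostly did so in the same direction in both genotypes, and 1 gene, Ppard, passed the test for a difference between them. By edgeR's quasi-likelihood test with Benjamini-Hochberg adjustment at 0.05, 0 genes had a higher and 1 gene had a lower time difference in TG (0.00656% of genes tested). Without adjustment, 912 genes (5.98%) had p below 0.05, 462 of them positive and 450 negative. DESeq2 called 21 genes (0.138% of the 15244 genes), 3 positive and 18 negative, and limma-voom called Ppard alone. DESeq2 gave no adjusted p for 2661 of these genes, which it could not call. From ZT2 to ZT14, 1398 genes (9.17%) changed in WT, with 4.85% of all genes higher at ZT14 and 4.32% lower. In TG 1862 genes (12.2%) changed, with 6.7% higher and 5.52% lower. The 896 genes called in both genotypes all had the same sign in both, and none of them was called for the interaction (70 had an unadjusted p below 0.05). Of 502 genes called in WT alone, 462 had the same sign in TG, and of 966 called in TG alone, 903 had the same sign in WT. Across the 15244 genes the time differences of the 2 genotypes, which share no libraries, had a Pearson r of 0.60 and a Spearman coefficient of 0.55, as a description over genes that are not independent replicates. The median interaction over all genes was 0.00 on the log2 scale, and the median standard error of a gene's interaction was 0.226, with the 10th and 90th percentiles at 0.122 and 0.664.

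**Figure D1:**
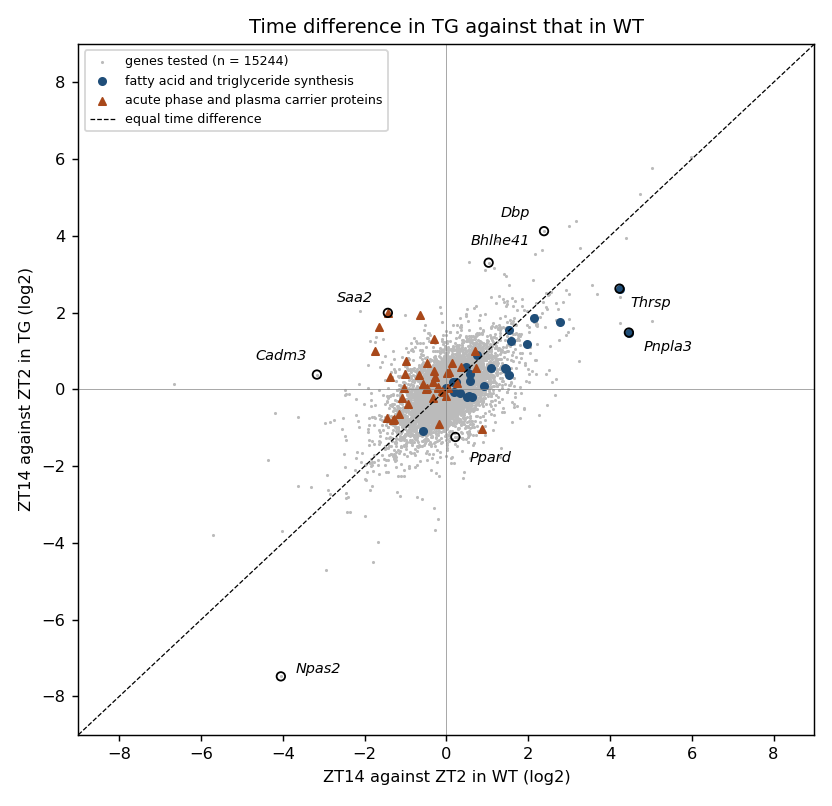
Each point is 1 gene, with its log2 difference between ZT14 and ZT2 in WT on the x axis and in TG on the y axis. Blue circles mark fatty acid and triglyceride synthesis genes, red triangles acute phase genes, and the dashed line equal differences. Ppard lies at 0.22 and -1.24, Cadm3 at -3.17 and 0.39, and Pnpla3 at 4.46 and 1.48.

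Ppard encodes the nuclear receptor PPAR delta, a lipid sensor that switches on genes of fatty acid use. Its gene (ENSMUSG00000002250) spans chr17:28232754-28301469. In WT it stood at 18.8, 16.6 and 16.6 CPM at ZT2 and at 18.1, 22.1 and 20.4 CPM at ZT14. In TG it stood at 33.0, 41.0 and 44.2 CPM at ZT2 and at 16.6, 16.7 and 16.7 CPM at ZT14. The TG libraries at ZT2 lay above all 9 others, and the TG libraries at ZT14 lay within the range of the WT libraries at ZT2. The WT means were 17.3 ± 1.24 CPM at ZT2 and 20.2 ± 2.04 at ZT14, and the TG means 39.4 ± 5.75 and 16.7 ± 0.0623 (SD, n = 3 libraries each). Ppard fell from ZT2 to ZT14 in TG, at a log2 difference of -1.24 (adjusted p = 4.57e-05 by edgeR), while the difference in WT was 0.22 (adjusted p = 0.278). The interaction was -1.46 (SE 0.16, 95% interval -1.81 to -1.11, adjusted p = 0.0109 by edgeR). The ratio of ZT14 to ZT2 was thus 2.75-fold lower in TG than in WT. Exon reads showed the same pattern, at means of 11 and 11.1 CPM of exon reads in WT at ZT2 and ZT14 against 30.2 and 9.86 in TG. Reads in introns averaged 5.78 and 9.28 CPM of intron reads in WT and 9.18 and 7.18 in TG. Over the alternatives the interaction ranged from -1.62 to -1.37. The adjusted p rose past 0.05 without TG at ZT2 replicate 2 (0.0533), without WT at ZT14 replicate 3 (0.0584), without TG at ZT14 replicate 2 (0.0609), and without both libraries that stand apart (0.0672, at an interaction of -1.44).

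Npas2 and Cadm3 came next and fell just short of the threshold in edgeR. Npas2 (ENSMUSG00000026077, chr1:39193731-39363236), a paralogue of CLOCK that pairs with BMAL1, had 190, 118 and 149 reads in WT at ZT2 and 13, 7 and 13 at ZT14. It had 272, 311 and 291 reads in TG at ZT2 and 4, 1 and 1 at ZT14. Its ZT2 level was 8.04 ± 0.788 CPM (mean ± SD) in WT against 16.1 ± 0.849 in TG, without overlap between genotypes, and at ZT14 the order was turned. Npas2 fell in both genotypes, at a log2 difference of -4.05 in WT (adjusted p = 1.55e-06 by edgeR) and -7.48 in TG (adjusted p = 7.34e-08). The interaction was -3.43 (SE 0.49, adjusted p = 0.0519 by edgeR). With 6 reads over the 3 TG libraries at ZT14, the fitted value depends on the prior count, and over the alternatives it ranged from -4.37 to -2.26. It was -3.05 without the 2 libraries that stand apart (adjusted p = 0.313). DESeq2 put the adjusted p at 0.000687.

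Cadm3 (ENSMUSG00000005338, chr1:173333258-173367695), an immunoglobulin-family cell adhesion molecule, had the opposite sign. It had 28, 24 and 39 reads in the WT libraries of ZT2 and 4, 3 and 5 in those of ZT14, against 35, 58 and 53 in TG at ZT2 and 104, 86 and 57 at ZT14. The WT libraries at ZT14 lay below all others, while the TG libraries at the 2 times overlapped. Cadm3 fell in WT, at a log2 difference of -3.17 (adjusted p = 0.000496 by edgeR), and differed by 0.39 in TG (adjusted p = 0.426). The interaction of 3.55 (SE 0.50) had an adjusted p of 0.0519 in edgeR and 3.9e-05 in DESeq2, and was 3.93 (adjusted p = 0.0278 by edgeR) without the 2 libraries that stand apart. Cadm3 overlaps Ackr1 on its own strand and Aim2 on the other, and whether reads were assigned by strand is not given in the sources used here, so shared reads are uncertain.

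**Figure D2:**
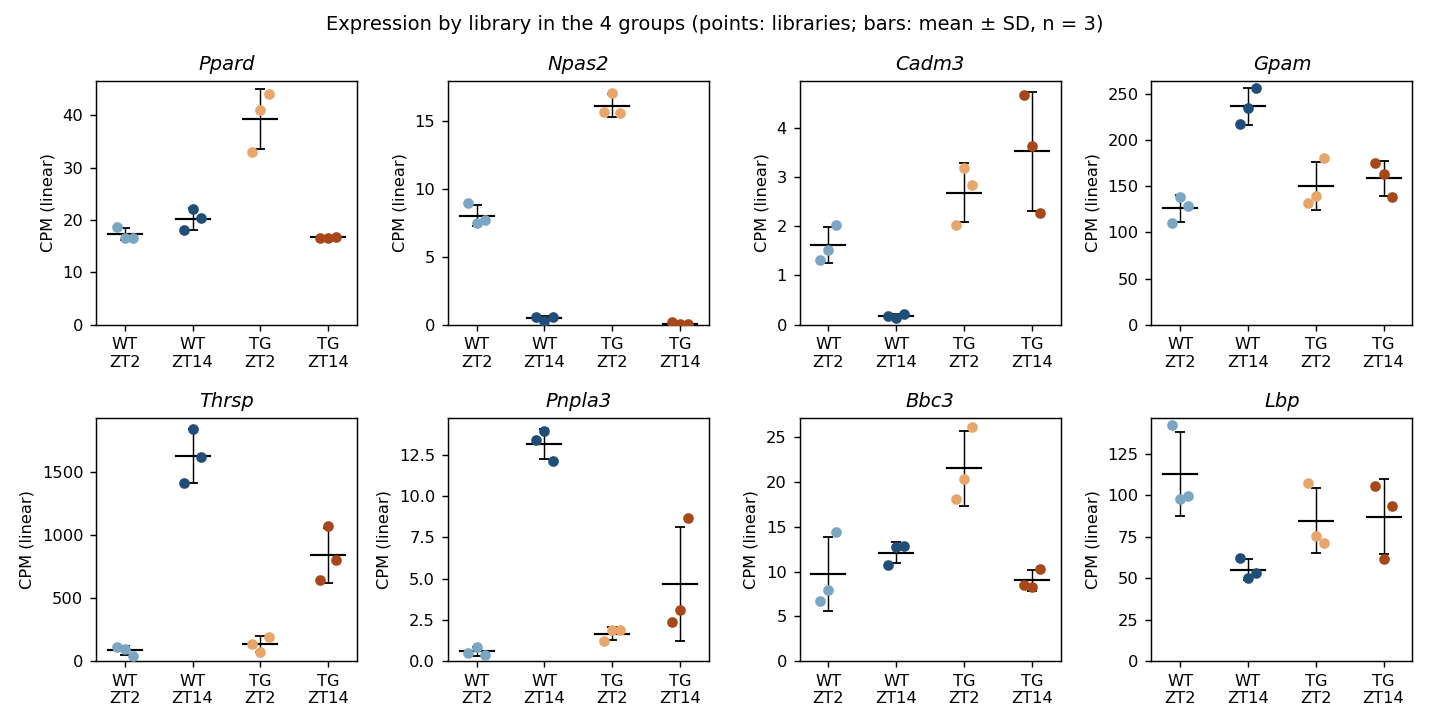
Expression in CPM on linear axes for 8 genes in the 4 groups, with 1 point per library and bars for the mean and SD of 3 libraries. Ppard stands at 33.0 to 44.2 CPM in TG at ZT2 and at 16.6 to 22.1 in the other groups, and Gpam at 218 to 257 CPM in the WT libraries of ZT14 against 110 to 180 elsewhere.

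Of the 20 genes named for the lowest interaction p, 17 were negative and 3 positive. In 10 of them the time difference had opposite signs in WT and TG, in 5 it had the same sign and was larger in TG, and in 5 it had the same sign and was smaller. Over all genes tested these shares were 29.0%, 38.2% and 32.8%. Over the 912 genes with an unadjusted interaction p below 0.05 they were 60.2%, 24.6% and 15.2%. The 20 genes were chosen by the interaction p, so their split of signs is no test. Ppard apart, none of the 20 passed edgeR's adjusted threshold, and 3 predicted genes in the same range of p are not described. The next paragraphs take first the genes with a time difference in TG, then those with one in WT.

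Time differences present in TG and not called in WT included those of Stard13, Tfpi2, Zfand4_1 and Bbc3. Stard13, a GTPase-activating protein, stood at 32.4, 34.8 and 34.1 CPM in WT at ZT2 and at 30.7, 37.0 and 34.2 at ZT14, against 53.6, 43.9 and 50.7 in TG at ZT2 and 31.8, 26.9 and 29.2 at ZT14. As for Ppard, the 3 TG libraries at ZT2 lay above all others. Stard13 fell in TG at a log2 difference of -0.75 (adjusted p = 0.000492 by edgeR) against 0.01 in WT, and its interaction was -0.76 (SE 0.14, adjusted p = 0.283). Tfpi2, a Kunitz-type protease inhibitor, averaged 51.5 ± 5.28 and 48.3 ± 4.72 CPM in WT at ZT2 and ZT14 and 64.4 ± 3.09 and 37.7 ± 1.96 CPM in TG. It fell in TG at -0.77 (adjusted p = 0.000347 by edgeR), with an interaction of -0.68 (adjusted p = 0.363). Zfand4_1, a zinc finger gene as the tables name it, fell in TG at -0.62 (adjusted p = 0.0139 by edgeR) against 0.37 in WT (adjusted p = 0.134), with an interaction of -0.99 (SE 0.20). Bbc3, which encodes the pro-apoptotic BH3-only protein PUMA, stood at 18.1, 20.3 and 26.1 CPM in TG at ZT2 and between 6.77 and 14.4 CPM in the 9 other libraries. The single high WT library at ZT2 was replicate 3. Bbc3 fell in TG at -1.25 (adjusted p = 0.00465 by edgeR), and its interaction was -1.57 (SE 0.33, adjusted p = 0.464), or -1.97 (adjusted p = 0.0235) without WT at ZT2 replicate 3. Chka, the choline kinase that opens phosphatidylcholine synthesis from choline, fell in both genotypes, at -0.90 in WT (adjusted p = 0.000547 by edgeR) and -1.63 in TG (adjusted p = 5.95e-06). Its mean at ZT2 was 118 ± 8.71 CPM in WT and 197 ± 28.0 in TG, and at ZT14 it was 63.5 ± 2.83 and 63.4 ± 8.29. The genotypes thus met at ZT14 and stood apart at ZT2, and the interaction was -0.74 (SE 0.17, adjusted p = 0.480). Rnf125, a RING-type ubiquitin ligase, averaged 129 ± 15.6 and 32.6 ± 10.4 CPM in WT at ZT2 and ZT14 and 178 ± 30.5 and 18.2 ± 0.336 CPM in TG. It fell at -1.99 in WT (adjusted p = 0.000123 by edgeR) and -3.29 in TG (adjusted p = 3.14e-06), with an interaction of -1.31 (SE 0.29). Lgalsl, a galectin-like gene, also fell in both, at -0.41 in WT (adjusted p = 0.0234 by edgeR) and -1.05 in TG (adjusted p = 6.83e-05).

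Time differences called in WT and smaller or of the other sign in TG included those of Spc24, Unc5b, Pgd, Stim2 and Nat8f6. Spc24, a kinetochore protein of the NDC80 complex, stood at 6.54, 5.95 and 6.00 CPM in WT at ZT2 and at 14.5, 12.7 and 13.6 at ZT14, against 7.96, 9.56 and 8.88 in TG at ZT2 and 8.64, 11.3 and 10.3 at ZT14. In WT the times did not overlap, and in TG they did. Spc24 rose in WT at a log2 difference of 1.14 (adjusted p = 0.00016 by edgeR) against 0.20 in TG (adjusted p = 0.343), with an interaction of -0.95 (SE 0.17, adjusted p = 0.283). Unc5b, a netrin receptor, rose in WT at 0.85 (adjusted p = 0.00362 by edgeR) and stood at -0.27 in TG, with an interaction of -1.12 (SE 0.21). Its 3 WT libraries at ZT2, at 3.21 to 3.29 CPM, lay below all others. Pgd, which makes NADPH in the pentose phosphate pathway, averaged 31.8 ± 1.86 and 48.3 ± 3.74 CPM in WT at ZT2 and ZT14 and 37.0 ± 2.50 and 38.4 ± 1.98 in TG. Pgd rose in WT at 0.61 (adjusted p = 0.000816 by edgeR) against 0.05 in TG (adjusted p = 0.733), with an interaction of -0.55 (SE 0.12, adjusted p = 0.480). Stim2, a calcium sensor of the endoplasmic reticulum, rose in both, at 0.98 in WT (adjusted p = 4.27e-05 by edgeR) and 0.42 in TG (adjusted p = 0.00966). Nat8f6, an N-acetyltransferase 8 family gene, likewise rose in both, at 2.92 in WT (adjusted p = 4e-06 by edgeR) and 1.42 in TG (adjusted p = 0.000777). Its interaction was -1.5 (SE 0.28, adjusted p = 0.283), and that of its neighbour Nat8f5 was -0.76 (SE 0.32). The 2 genes overlap and are close copies, so their reads may be split.

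Clstn3 and Lpcat3 had time differences of opposite sign in the 2 genotypes. Clstn3, a cadherin-family membrane protein, averaged 7.58 ± 1.04 and 19.3 ± 5.81 CPM in WT at ZT2 and ZT14 and 18.2 ± 4.56 and 12.1 ± 4.29 in TG. It rose in WT at 1.35 (adjusted p = 0.00952 by edgeR) and stood at -0.59 in TG (adjusted p = 0.186), with an interaction of -1.94 (SE 0.39, adjusted p = 0.363). Lpcat3, which puts polyunsaturated acyl chains into phospholipids, stood at 0.24 in WT (adjusted p = 0.105) and fell in TG at -0.34 (adjusted p = 0.0238 by edgeR), with an interaction of -0.58 (SE 0.12). Lpcat3 overlaps Emg1 on the other strand. The positive genes beside Cadm3 were low in reads. Tes, a focal adhesion protein, had an interaction of 1.59 (SE 0.36), and Cdkn2aipnl one of 1.13 (SE 0.26), at means of 1.52 to 5.09 CPM, and both overlap a predicted gene on the other strand.

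The gene lists were chosen with earlier results of these data known, so their order is no test. Among lists with 5 or more tested genes, fatty acid and triglyceride synthesis had the most negative median interaction. Its median over 25 tested genes was -0.51 on the log2 scale against 0.00 over all genes, and 5 of the 25 were above 0 against 50.4% of all genes. None of its members was called for the interaction by edgeR, 11 had an unadjusted p below 0.05, all negative (against 2.95% of all genes), and DESeq2 called 2, Pnpla3 and Gpam. From ZT2 to ZT14, 16 members rose and 0 fell in WT, against 4.85% and 4.32% of all genes. In TG 11 rose and 1 fell, against 6.7% and 5.52%. In 19 of the 25 the time difference was smaller in absolute size in TG than in WT. The same held for 7147 of all 15244 genes. The mean of the list per library, relative to the mean over libraries, was -0.60, -0.35 and -0.86 in WT at ZT2 and 0.52, 0.66 and 0.63 at ZT14. In TG it was -0.35, -0.39 and -0.13 at ZT2 and 0.31, 0.33 and 0.23 at ZT14. The 3 TG libraries at ZT14 thus lay below all 3 WT libraries of that time, while at ZT2 the genotypes overlapped. The median was -0.59 without the 2 libraries that stand apart and -0.64 to -0.41 with each library left out in turn.

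Pnpla3, a lipid droplet protein with lipase and acyltransferase activity, had the lowest interaction p of the list. It stood at 0.517, 0.886 and 0.414 CPM in WT at ZT2 and at 13.4, 13.9 and 12.1 at ZT14. In TG it stood at 1.21, 1.92 and 1.93 CPM at ZT2 and at 2.37, 3.08 and 8.67 at ZT14. Every TG library lay between the WT libraries of the 2 times, and TG at ZT14 replicate 3, which stands apart, was the nearest to WT at ZT14. Pnpla3 rose in both genotypes, at 4.46 in WT (adjusted p = 0.00016 by edgeR) and 1.48 in TG (adjusted p = 0.0401). The interaction was -2.98 (SE 0.66, adjusted p = 0.480 by edgeR), and without the 2 libraries that stand apart it was -3.68 (adjusted p = 0.0278). Without TG at ZT14 replicate 3 alone it was -3.77 (adjusted p = 0.0065).

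Gpam, the first enzyme of glycerolipid synthesis, stood at 110, 138 and 129 CPM in WT at ZT2 and at 218, 235 and 257 at ZT14, against 132, 140 and 180 in TG at ZT2 and 176, 163 and 138 at ZT14. The WT libraries at ZT14 lay above all others, and in TG the times overlapped. Gpam rose in WT at 0.91 (adjusted p = 0.00123 by edgeR) against 0.08 in TG (adjusted p = 0.763), with an interaction of -0.83 (SE 0.19, adjusted p = 0.480, and 0.0252 by DESeq2). Thrsp, a lipogenic protein also called Spot 14, stood at 115, 102 and 43.4 CPM in WT at ZT2 and at 1417, 1843 and 1625 at ZT14. In TG it stood at 141, 71.2 and 197 CPM at ZT2 and at 645, 1076 and 802 at ZT14. The genotypes overlapped at ZT2, and at ZT14 all 3 TG libraries lay below the 3 WT libraries. Thrsp rose in both, at 4.23 in WT (adjusted p = 8.48e-05 by edgeR) and 2.63 in TG (adjusted p = 0.00117), with an interaction of -1.61 (SE 0.52, adjusted p = 0.735).

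The genes named here for the steps from cytosolic acetyl-CoA to fatty acids had negative values, but most were named after their values were seen. Of the 25 tested members of the list 5 were above 0, and none of those 5 is named here, so the shared sign is no test. Acly, which makes cytosolic acetyl-CoA from citrate, rose in WT at 1.45 (adjusted p = 0.00115 by edgeR) and stood at 0.54 in TG (adjusted p = 0.114), with an interaction of -0.90 (SE 0.29). Acaca, the acetyl-CoA carboxylase of fat synthesis, rose in both, at 1.10 and 0.55, with an interaction of -0.55 (SE 0.18). Fasn, fatty acid synthase, averaged 264 ± 104 and 1798 ± 264 CPM in WT at ZT2 and ZT14 and 384 ± 134 and 1299 ± 377 CPM in TG, with an interaction of -1.01 (SE 0.42). Me1, a malic enzyme that makes NADPH, had an interaction of -1.16 (SE 0.42), and Acss2, an acetyl-CoA synthetase, one of -0.81 (SE 0.31). Srebf1, the transcription factor that drives these enzymes, rose at 1.98 in WT (adjusted p = 0.000135 by edgeR) and 1.19 in TG (adjusted p = 0.00283), with an interaction of -0.80 (SE 0.29). Elovl6, which elongates palmitate, had -0.30 (95% interval -0.97 to 0.37), and Scd1, the main hepatic desaturase, had -0.73 (95% interval -1.57 to 0.11). Agpat2, the next acyltransferase after Gpam, had -0.41 (SE 0.13). The adjusted p of the interaction by edgeR was 0.699 or more for each of the genes of this paragraph, and Fasn, Srebf1, Acly, Acaca, Me1, Acss2, Scd1 and Elovl6 were named after their values were seen. Pparg, an adipogenic nuclear receptor kept in another list, rose in WT at 0.84 (adjusted p = 0.0439 by edgeR) against -0.15 in TG, with an interaction of -0.99 (SE 0.33).

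**Figure D3:**
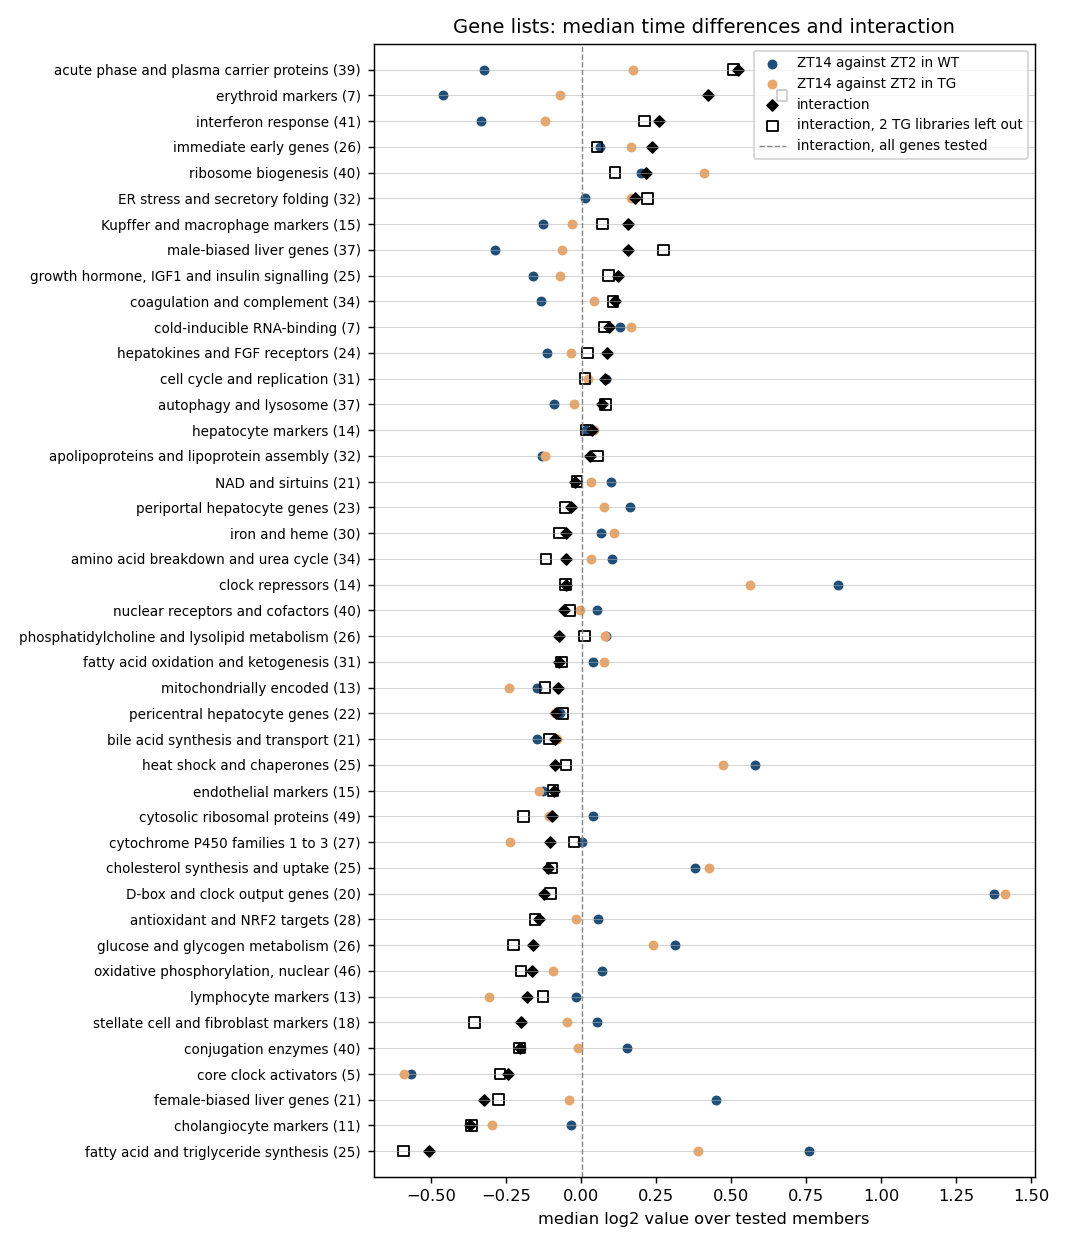
Median log2 values of each gene list with at least 5 tested members: the ZT14 against ZT2 difference in WT (blue) and TG (orange), the interaction (black diamonds), and the interaction without the 2 TG libraries that stand apart (open squares). Numbers in brackets are tested members. The fatty acid and triglyceride synthesis list lies lowest, at -0.51, and the acute phase list highest, at 0.52.

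Acute phase and plasma carrier protein genes lay at the other end of those lists, with a median interaction of 0.52 over 39 tested genes. Against 50.4% of all genes, 33 of the 39 (84.6%) were above 0. None was called by edgeR or DESeq2, and 15 had an unadjusted p below 0.05, 14 positive and 1 negative, against 3.03% and 2.95% of all genes. In WT 8 members fell from ZT2 to ZT14 and 0 rose, against 4.32% and 4.85% of all genes. In TG 3 fell and 1 rose, against 5.52% and 6.7% of all genes. Lbp, which presents bacterial lipopolysaccharide to immune receptors, stood at 142, 97.4 and 99.3 CPM in WT at ZT2 and at 62.2, 50.2 and 53.4 at ZT14. In TG it stood at 107, 75.5 and 71.1 CPM at ZT2 and at 106, 61.9 and 93.4 at ZT14. The WT times did not overlap and the TG times did. Lbp fell in WT at -1.03 (adjusted p = 0.00957 by edgeR) against 0.04 in TG (adjusted p = 0.930), with an interaction of 1.07 (SE 0.30, adjusted p = 0.687). Cp, the copper ferroxidase ceruloplasmin, followed the same course, at -0.50 in WT (adjusted p = 0.0131 by edgeR) and 0.00 in TG, with an interaction of 0.50 (SE 0.16).

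The strongly inducible members varied widely among libraries of the same group. Saa1 and Saa2, serum amyloid A genes that are near copies of each other, had interactions of 2.76 (SE 0.95) and 3.43 (SE 1.02). Saa2 stood at 101, 12.1 and 57.0 CPM in WT at ZT2 and at 203, 26.5 and 57.1 in TG at ZT14, so that single libraries of a group differed more than the group means. Its interaction was 2.23 without TG at ZT14 replicate 1. Mt1 and Mt2, metallothioneins that bind zinc and copper, had interactions of 2.59 (SE 0.90) and 3.28 (SE 1.24), and Lcn2, an iron-siderophore binding protein, had 1.61 (SE 0.69). Mt2 had 1.85 without TG at ZT14 replicate 3. Hamp2, a hepcidin family gene, was the single negative member with a low p, at -1.92 (SE 0.60). None of these had an adjusted p below 0.699, and Saa1, Mt1, Mt2 and Lcn2 were named after their values were seen. By library the mean of the list was 0.44, -0.19 and 0.24 for WT at ZT2, and -0.19, -0.41 and -0.24 for WT at ZT14. For TG it was 0.12, 0.07 and -0.31 at ZT2, and 0.20, -0.14 and 0.40 at ZT14. Every pair of groups overlapped in part except WT and TG at ZT14, where the lowest TG library lay just above the highest WT library. Without the 2 libraries that stand apart the median was 0.51. At an unadjusted p below 0.05, 9 members were then positive and 1 negative, against 461 and 504 of all 15390 genes tested in that fit. The median was 0.36 to 0.65 with each library left out in turn.

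Interferon response genes had a median interaction of 0.26 over 41 tested members, and 36 of the 41 (87.8%) were above 0. None was called by edgeR or DESeq2, and 4 had an unadjusted p below 0.05, all positive (against 3.03% of all genes), while 50.4% of all genes were above 0. In WT 7 members fell from ZT2 to ZT14 (against 4.32% of all genes) and 0 rose, and in TG 2 fell (against 5.52%) and 1 rose. Ifit1, an antiviral RNA-binding protein, stood at 9.50, 7.15 and 7.86 CPM in WT at ZT2 and at 3.50, 2.99 and 3.47 at ZT14, against 9.64, 6.49 and 5.51 in TG at ZT2 and 5.6, 6.88 and 7.16 at ZT14. The WT libraries at ZT14 lay below all others. Ifit1 fell in WT at -1.30 (adjusted p = 0.00182 by edgeR) against -0.14 in TG (adjusted p = 0.717), with an interaction of 1.16 (SE 0.28, adjusted p = 0.551). Mx1, an antiviral GTPase, fell in WT at -1.44 (adjusted p = 0.0148 by edgeR) against -0.23 in TG, with an interaction of 1.21 (SE 0.44). Zbp1, a sensor of nucleic acids, had 1.01 (SE 0.37), and Parp14 had 0.37 (SE 0.16), or 0.18 without the 2 libraries that stand apart. The list's median was then 0.21, and it was 0.19 to 0.40 with each library left out in turn.

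**Figure D4:**
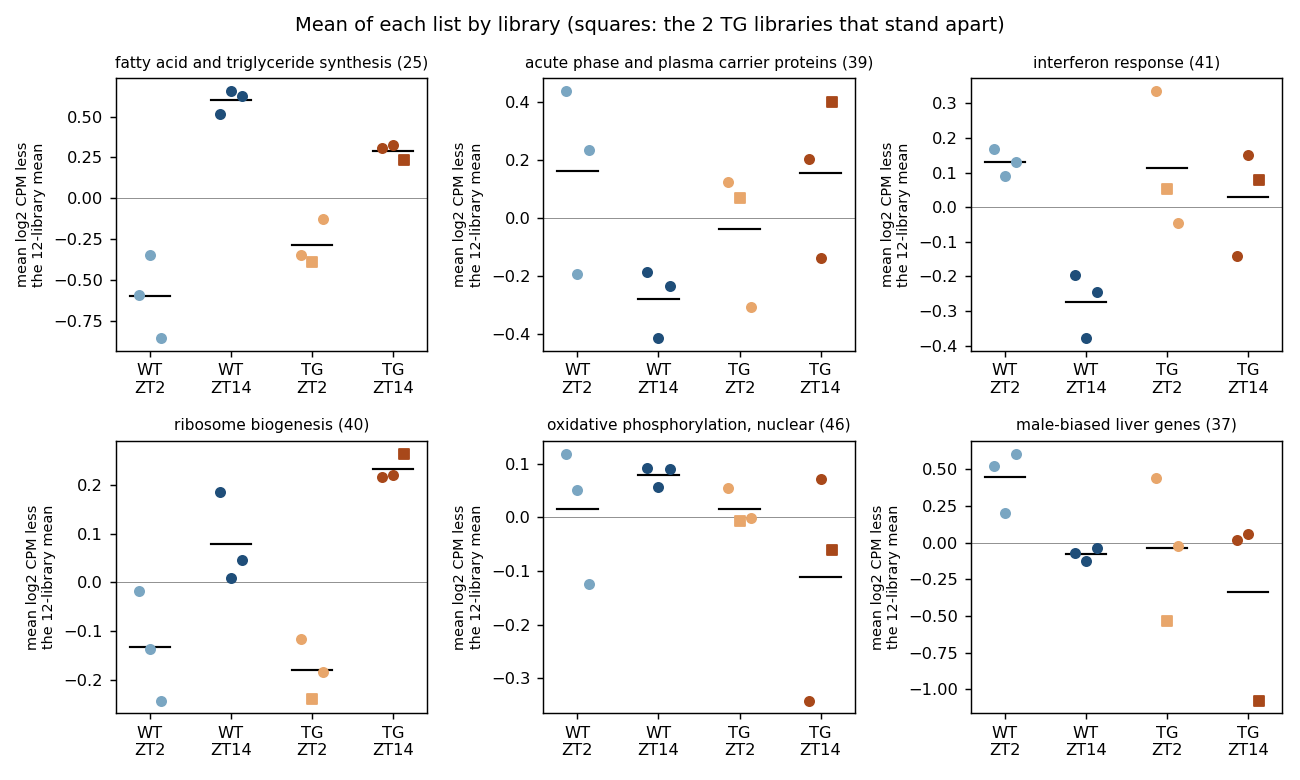
Mean log2 CPM of the tested members of 6 lists in each library, relative to the mean over the 12 libraries, with lines for group means and squares for the 2 TG libraries that stand apart. Fatty acid synthesis genes at ZT14 lie at 0.52 to 0.66 in WT and at 0.23 to 0.33 in TG, and oxidative phosphorylation genes lie lowest in TG at ZT14 replicate 1, at -0.34.

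Markers of immune cells were set beside these immune-related lists. The 15 macrophage and Kupffer cell markers, all tested, summed to 573 to 643 CPM in WT at ZT2, 509 to 621 in WT at ZT14, 499 to 704 in TG at ZT2 and 511 to 722 in TG at ZT14. Against 50.4% of all genes, 14 of 15 had an interaction above 0. None had an unadjusted p below 0.05 or was called by edgeR or DESeq2. Their median interaction was 0.16. It was -0.02 without TG at ZT14 replicate 3. Of 11 neutrophil markers 3 passed the filter on low counts, and the 11 summed to 3.55 to 8.02 CPM in WT at ZT2, 2.81 to 3.81 in WT at ZT14, 2.43 to 6.13 in TG at ZT2 and 3.0 to 5.59 in TG at ZT14. The 3 tested ones had a median interaction of 1.98, or 0.67 without the 2 libraries that stand apart. Of these 3, 2 fell in WT (against 4.32% of all genes) and none in TG (against 5.52%). S100a8, a calcium-binding protein abundant in neutrophils, averaged 0.774 and 0.0579 CPM in WT at ZT2 and ZT14 and 0.464 and 0.271 CPM in TG, with an interaction of 2.90 (SE 1.17), or 1.84 without TG at ZT14 replicate 3. It had 4 reads over the 3 WT libraries at ZT14. S100a9, also tested, had 29, 6 and 28 reads in WT at ZT2 and 5, 2 and 3 at ZT14. In TG S100a9 had 21, 13 and 4 reads at ZT2 and 4, 3 and 21 at ZT14. For Csf3r, the remaining tested marker, the WT times overlapped, at 60, 35 and 76 reads at ZT2 and 65, 58 and 55 at ZT14. In TG Csf3r had 41, 66 and 34 reads at ZT2 and 53, 67 and 72 at ZT14. The 17 lymphocyte markers summed to 20.6 to 35.8 CPM over all libraries, and the 13 tested had a median interaction of -0.18, or -0.13 without the 2 libraries that stand apart. The 10 measured erythroid markers summed to 286 to 609 CPM, and the 7 tested had a median of 0.42, or 0.67 without the 2 libraries. At an unadjusted p below 0.05 there were 0 erythroid markers with all libraries and 3 positive ones without those 2. In the fit without those 2 libraries 461 of all 15390 genes tested were positive at that p. No marker of these 4 lists was at 0 in every library. Their part in the acute phase and interferon values was not tested, and in whole liver fewer cells of a type and less RNA per cell cannot be told apart.

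Ribosome biogenesis genes, which build ribosomal subunits, mostly had positive interactions. Of 40 tested members 20 rose and 0 fell in TG, against 6.7% and 5.52% of all genes. In WT 9 rose and 1 fell, against 4.85% and 4.32%. The median interaction was 0.22. Against 50.4% of all genes, 30 of 40 (75.0%) were above 0. None was called by edgeR or DESeq2, and 6 had an unadjusted p below 0.05, all positive (against 3.03% of all genes). Without the 2 libraries that stand apart 2 were positive at that p, against 461 of all 15390 genes tested in that fit. Nop2, an rRNA methyltransferase, stood at 18.8, 17.0 and 14.9 CPM in WT at ZT2 and at 32.3, 24.2 and 26.6 at ZT14, against 16.7, 15.0 and 15.6 in TG at ZT2 and 36.4, 33.6 and 36.9 at ZT14. Both genotypes separated the times, and at ZT14 every TG library lay above every WT library. Nop2 rose at 0.71 in WT (adjusted p = 0.00218 by edgeR) and at 1.18 in TG (adjusted p = 7.7e-05), with an interaction of 0.47 (SE 0.16, adjusted p = 0.751). Heatr1, which promotes transcription of rRNA, rose in TG at 0.75 (adjusted p = 0.00429 by edgeR) against 0.20 in WT (adjusted p = 0.426), with an interaction of 0.54 (SE 0.19). Rrs1 and Nop14, ribosome assembly factors, had 0.80 (SE 0.29) and 0.33 (SE 0.14). Rrn3 and Ubtf, factors of RNA polymerase I named after their values were seen, had 0.93 (SE 0.39) and 0.28 (SE 0.12). Without WT at ZT2 replicate 1 Rrs1 had 0.48 and Rrn3 had 0.55. The median was 0.11 without the 2 libraries that stand apart and 0.13 to 0.24 with each library left out in turn.

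Oxidative phosphorylation and ribosomal protein genes had small, mostly negative values. All 46 nuclear genes of oxidative phosphorylation were below 0, at a median of -0.16, and 4 of 49 cytosolic ribosomal protein genes were above 0, at a median of -0.10. Over all genes tested 50.4% were above 0. No member of either list was called by edgeR or DESeq2 or had an unadjusted p below 0.05. The mean of the oxidative phosphorylation list reached -0.34, 0.07 and -0.06 in TG at ZT14, and lay between -0.12 and 0.12 in the 9 others. Replicate 1 of TG at ZT14 was the low one, and without it the medians were -0.07 and -0.01. Genes of protein folding in the endoplasmic reticulum had a median of 0.18, with 28 of 32 above 0. They had 1 unadjusted p below 0.05 in each direction, near the 3.03% and 2.95% of all genes. None was called by edgeR or DESeq2. Their median was 0.05 without TG at ZT14 replicate 1 and 0.00 without WT at ZT2 replicate 3.

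Core clock genes mostly had time differences of the same sign in both genotypes, and none of them was called for the interaction by edgeR. Arntl, which encodes the clock activator BMAL1, stood at 32.8, 26.5 and 29.3 CPM in WT at ZT2 and at 8.91, 15.8 and 13.3 at ZT14, against 38.4, 42.7 and 40 in TG at ZT2 and 5.51, 10.9 and 13.2 at ZT14. The times did not overlap in either genotype, and at ZT2 the TG libraries lay above the WT libraries. Arntl fell at -1.22 in WT (adjusted p = 0.00968 by edgeR) and at -2.02 in TG (adjusted p = 0.000452), with an interaction of -0.80 (95% interval -1.58 to -0.03, adjusted p = 0.816). Clock, the partner of BMAL1, fell at -0.57 and -0.59, with an interaction of -0.02 (95% interval -0.30 to 0.26). With Npas2, the 5 tested clock activators had 0 calls by edgeR, 2 unadjusted p below 0.05 (Npas2 and Arntl, both negative) and 1 call by DESeq2 (Npas2). Over all genes 2.95% were negative at that unadjusted p, and DESeq2 called 0.138%.

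Of the 14 tested clock repressors 8 rose and 2 fell in TG, against 6.7% and 5.52% of all genes. In WT 7 rose and 1 fell, against 4.85% and 4.32%. None was called for the interaction by edgeR or DESeq2, and 2 had an unadjusted p below 0.05, against 5.98% of all genes. Those 2 were Bhlhe41 and Cry1. Bhlhe41, also called DEC2, stood at 1.22, 1.58 and 0.724 CPM in WT at ZT2 and at 3.59, 1.71 and 1.89 at ZT14, against 0.346, 0.275 and 0.267 in TG at ZT2 and 2.51, 3.88 and 2.50 at ZT14. At ZT2 every TG library lay below every WT library, and at ZT14 the genotypes overlapped. Bhlhe41 rose in TG at 3.30 (adjusted p = 0.000463 by edgeR) against 1.03 in WT (adjusted p = 0.0923), with an interaction of 2.27 (95% interval 1.04 to 3.50, adjusted p = 0.585). Cry1, a cryptochrome repressor, rose in WT at 0.89 (adjusted p = 0.0055 by edgeR) against 0.24 in TG (adjusted p = 0.406), with an interaction of -0.65 (95% interval -1.16 to -0.14, adjusted p = 0.751).

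The other repressors had intervals that held 0, of very different width. Per2, a Period gene, rose at 2.51 in WT and 2.47 in TG, with an interaction of -0.04 (95% interval -0.66 to 0.59). Per3 rose at 5.03 and 5.76, with 0.72 (95% interval -0.40 to 1.85), and Per1 rose at 2.33 and 3.62, with 1.28 (95% interval -0.52 to 3.09). The wide interval of Per1 went with WT at ZT2 replicate 2, at 15.7 CPM against 3.90 and 1.71 in the other libraries of that group. The same library was the highest of its group for Bhlhe40, also called DEC1, at 101 CPM against 37.3 and 23.4, and the interaction of Bhlhe40 was 0.77 with it and -0.04 without it. Without the same library the interaction was 0.01 for Per1 and 0.39 for Per3. Nr1d1, which encodes the repressor REV-ERB alpha, fell in both genotypes, with an interaction of -0.07 (95% interval -1.11 to 0.98). Ciart, a repressor of CLOCK and BMAL1, rose at 5.99 and 6.07, with an interaction of 0.07 (95% interval -1.68 to 1.83) that was -0.45 with uniquely mapped reads and -0.54 with exon reads.

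**Figure D5:**
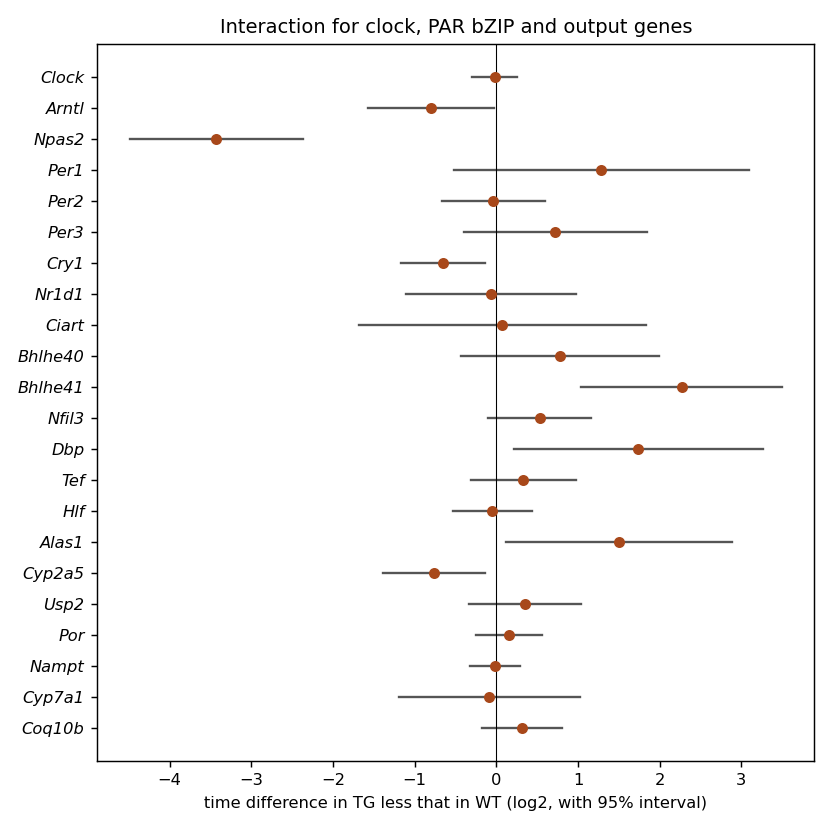
Interaction of time and genotype on the log2 scale for clock, PAR bZIP and output genes, with points for the estimates and bars for 95% intervals, not adjusted for the number of genes. The interval of Clock runs from -0.30 to 0.26, that of Ciart from -1.68 to 1.83, and those of Npas2, Arntl, Cry1, Bhlhe41, Dbp, Alas1 and Cyp2a5 do not hold 0.

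Among the bZIP factors themselves, Nfil3 had time differences of -0.32 in WT (adjusted p = 0.406 by edgeR) and 0.21 in TG (adjusted p = 0.558), with an interaction of 0.53 (95% interval -0.10 to 1.16). Dbp, the main PAR bZIP activator of liver, stood at 1.27, 11.6 and 6.93 CPM in WT at ZT2 and at 41.9, 34.9 and 24.5 at ZT14, against 2.60, 1.87 and 2.14 in TG at ZT2 and 44.0, 40.7 and 30.5 at ZT14. At ZT14 the genotypes overlapped, and at ZT2 the WT libraries spread on both sides of the TG libraries. Dbp rose at 2.39 in WT (adjusted p = 0.00698 by edgeR) and 4.12 in TG (adjusted p = 0.000465), with an interaction of 1.74 (95% interval 0.21 to 3.26, adjusted p = 0.792), or 1.06 without WT at ZT2 replicate 2. Tef and Hlf, the other PAR bZIP genes, rose in both genotypes and had interactions of 0.33 (95% interval -0.31 to 0.98) and -0.05 (95% interval -0.53 to 0.43), and Tef had 0.02 without that library.

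Of 20 tested D-box and clock output genes 7 (35.0%) were above 0, against 50.4% of all genes, and the median was -0.12. None was called by edgeR or DESeq2. Against 3.03% and 2.95% of all genes, 1 in each direction had an unadjusted p below 0.05. Those were Alas1, the first enzyme of heme synthesis, at 1.5 (95% interval 0.12 to 2.88, and 0.77 without WT at ZT2 replicate 1), and Cyp2a5, a coumarin hydroxylase, at -0.77 (95% interval -1.39 to -0.14). Cyp2a5 averaged 178 ± 39.9 and 942 ± 88.8 CPM in WT at ZT2 and ZT14 and 216 ± 29.6 and 671 ± 196 CPM in TG, and it has a near-identical copy that may share its reads. Without the 2 libraries that stand apart, 0 members were positive and 2 negative at an unadjusted p below 0.05. Of all 15390 genes tested in that fit 461 were positive and 504 negative at that p. The median of this list was 0.05 without WT at ZT2 replicate 3. Narrow intervals around 0 were those of Nampt, the rate-limiting enzyme of NAD salvage, at -0.02 (95% interval -0.33 to 0.29), and of Por, the electron donor of P450 enzymes, at 0.16 (95% interval -0.25 to 0.56). Usp2, a deubiquitinase, rose at 4.73 in WT and 5.09 in TG, with an interaction of 0.35 (95% interval -0.33 to 1.04). Cyp7a1, which starts the classical route from cholesterol to bile acids, had a wide interval around -0.08 (95% interval -1.19 to 1.02). Per3 and Coq10b, whose promoters held D-box letters, had 0.72 and 0.32 (95% interval -0.18 to 0.81 for Coq10b), and Ppard, whose window held none, had -1.46.

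Fatty acid oxidation and ketogenesis genes had a median of -0.07 over 31 tested members. They had 2 unadjusted p below 0.05 in each direction (3.03% positive and 2.95% negative over all genes). There were 0 calls by edgeR and 1 by DESeq2 (0.138% of all genes). Cpt1a, which brings fatty acids into mitochondria, stood at 262, 275 and 297 CPM in WT at ZT2 and at 273, 264 and 257 at ZT14, against 246, 243 and 247 in TG at ZT2 and 332, 300 and 305 at ZT14. The TG libraries at ZT14 lay above all others. Cpt1a rose in TG at 0.35 (adjusted p = 0.0122 by edgeR) against -0.07 in WT (adjusted p = 0.653), with an interaction of 0.42 (SE 0.11, adjusted p = 0.675, and 0.0332 by DESeq2). Pdk4, which holds back pyruvate oxidation, stood at 13.6, 10.5 and 24.8 CPM in TG at ZT2 and at 7.34, 6.41 and 6.64 at ZT14, and it fell in TG at -1.26 (adjusted p = 0.0221 by edgeR). Its difference in WT was 0.39 (adjusted p = 0.530), and its interaction was -1.66 (SE 0.45). Acaa1b, a peroxisomal thiolase, had -0.89 (SE 0.33), and Hadhb, a subunit of the mitochondrial trifunctional protein, had 0.26 (SE 0.11).

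Among nuclear receptors and cofactors 1 of 40 tested genes, Ppard, was called, against 0.00656% of all genes. Nr0b2, the repressor SHP, fell in TG at -1.46 (adjusted p = 0.00836 by edgeR) against -0.38 in WT (adjusted p = 0.502), with an interaction of -1.09 (SE 0.42). Neither Nr0b2 nor the genes that follow in this paragraph, which come from other lists, were called for the interaction by edgeR. Foxo3, a forkhead factor restrained by insulin signalling, rose in WT at 0.65 (adjusted p = 0.00121 by edgeR) against 0.23 in TG (adjusted p = 0.151), with an interaction of -0.42 (SE 0.14, adjusted p = 0.735). Igfals and Igf1, which encode the carrier subunit and the growth factor of the circulating IGF1 complex, had 0.51 (SE 0.22) and 0.40 (SE 0.17). Of 25 tested growth hormone, IGF1 and insulin signalling genes these 2 were positive and 1, Foxo3, negative at an unadjusted p below 0.05. Over all genes 3.03% were positive and 2.95% negative at that p. Without the 2 libraries that stand apart 0 members were positive and 3 negative, against 461 and 504 of all 15390 genes tested in that fit. Igfals rose in TG at 0.56 (adjusted p = 0.0308 by edgeR) against 0.05 in WT (adjusted p = 0.897). Gdf15, a stress-induced hormone, stood at 10.6, 4.51 and 6.90 CPM in TG at ZT2 and at 2.06 to 5.46 CPM in the other groups, so the TG libraries at ZT2 overlapped a single WT library at ZT14. It fell in TG at -1.36 (adjusted p = 0.0296 by edgeR), with an interaction of -1.89 (SE 0.53, adjusted p = 0.687).

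Elovl3, an elongase of very long chain fatty acids, fell steeply in both genotypes. It stood at 573, 543 and 682 CPM in WT at ZT2 and at 34.1, 88.3 and 111 at ZT14, against 460, 545 and 511 in TG at ZT2 and 11.9, 22.7 and 23.8 at ZT14. The genotypes overlapped at ZT2 and not at ZT14. The log2 differences were -2.94 in WT (adjusted p = 0.000372 by edgeR) and -4.70 in TG (adjusted p = 2.1e-05), with an interaction of -1.75 (SE 0.48, adjusted p = 0.687). Rbm3, a cold-inducible RNA-binding protein, rose at 0.49 in WT (adjusted p = 0.00443 by edgeR) and 0.96 in TG (adjusted p = 5.25e-05), with an interaction of 0.48 (SE 0.12). Among cytosolic chaperones Hspa1a and Hspa1b, near-identical HSP70 genes that may share reads, had 2.64 (SE 1.05) and 1.34 (SE 0.58). Serpinh1, a collagen chaperone of the endoplasmic reticulum, fell in TG at -0.60 (adjusted p = 0.044 by edgeR) against 0.19 in WT, with an interaction of -0.79 (SE 0.25). Fkbp4, an HSP90 co-chaperone, rose in WT at 0.58 (adjusted p = 0.00178 by edgeR) against 0.25 in TG, with an interaction of -0.34 (SE 0.13). Of cell cycle genes, Ccne1, which encodes cyclin E1, had 1.32 (SE 0.37), and Tk1, thymidine kinase, had -0.76 (SE 0.22). Ccne1 rose at 1.08 in WT (adjusted p = 0.0166 by edgeR) and 2.40 in TG (adjusted p = 0.000155), and Tk1 rose at 1.31 (adjusted p = 0.000372) and 0.55 (adjusted p = 0.0381). Bub1b, a spindle checkpoint kinase, had -1.43 (SE 0.47). Pla2g6, a phospholipase, rose in WT at 0.60 (adjusted p = 0.00613 by edgeR) against 0.13 in TG, with an interaction of -0.48 (SE 0.16). Gsta3, a glutathione transferase, rose in WT at 0.69 (adjusted p = 0.01 by edgeR) against 0.17 in TG, with -0.52 (SE 0.20). Fgfr1, a fibroblast growth factor receptor, had 0.87 (SE 0.26). Jun and Atf3, immediate early transcription factors, had 1.42 (SE 0.52) and 1.43 (SE 0.49), and Jun had 0.68 without WT at ZT2 replicate 1. They were the 2 of 26 tested members of their list with an unadjusted p below 0.05, against 5.98% of all genes. Without the 2 libraries that stand apart no member was positive at that p, 1 was negative and the median was 0.05. Of all 15390 genes tested in that fit 461 were positive and 504 negative. The median of the list was 0.24 with all libraries and -0.02 without TG at ZT14 replicate 3. Over all 45 lists together, 95 of 1023 tested symbols had an unadjusted p below 0.05, against 912 of 15244 genes tested (5.98%), and 1, Ppard, was called.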

How the data were processed

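Poly(A) RNA of 12 mouse liver samples was sequenced. The deposited tables hold whole-number read counts per gene, split into exon, intron and uniquely mapped reads per the file headers. The build was mm10 (GRCm38) per the submitters' processing notes. The aligner, and whether strand was used, are not stated in the labels or file headers. Total gene read counts, as deposited, were analysed in R 4.3.3 with edgeR 4.0.16: genes passed edgeR's filterByExpr (minimum count 10, minimum total 15), TMM normalisation was used, and 1 quasi-likelihood model with a mean per group was fitted over all 12 libraries. The contrast was (TG ZT14 less TG ZT2) less (WT ZT14 less WT ZT2), with Benjamini-Hochberg adjustment over all tested genes at 0.05. All tests were two-sided. CPM values use TMM library sizes. DESeq2 1.42.0, limma-voom (limma 3.58.1), other scalings, filters and read columns, a replicate block and leaving out libraries were alternatives. The scripts were tested on simulated data.

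The genes named were the 20 with the lowest interaction p after predicted genes, the clock and PAR bZIP genes with selected outputs, and, from each remaining list, at most the 4 tested genes of lowest interaction p. Others are marked as named after their values were seen. The members and gene lists were chosen with earlier results of these data known. Replicate numbers were checked for pairing: of 18 same-numbered pairs, 2 had a correlation of deviations over 0.1 (range -0.24 to 0.14), so the numbers were not taken to pair samples. No 2 libraries of a group agreed within sampling noise. A clock gene of the lists is not reported here.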

Additional observations from a re-analysis of the deposited data

Results flagged for a closer look

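Ppard was the single gene whose time difference differed between the genotypes by the test of that difference: the log2 interaction was -1.46 (adjusted p = 0.0109 by edgeR), with time differences of 0.22 in WT and -1.24 in TG. All 3 TG libraries at ZT2 lay above the 9 other libraries.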

How the results depend on the processing

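The count of genes called for the interaction, 1 in the reported fit, was 4 with RLE size factors, 21 with DESeq2, 11 with no filter beyond 1 read, 4 with uniquely mapped reads, 2 without both libraries that stand apart (Cadm3 and Pnpla3), 0 at an adjusted p below 0.01 and 0 to 3 with each library left out in turn. Leaving out replicate 2 of TG at ZT2, replicate 2 of TG at ZT14 or replicate 3 of WT at ZT14 gave 0 calls. Leaving out replicate 3 of WT at ZT2, or replicate 1 or 3 of TG at ZT14, gave 3. Leaving out replicate 2 of WT at ZT2, or replicate 1 or 2 of WT at ZT14, gave 2. With the replicate block it was 2, Ppard among them (adjusted p = 0.0289 by edgeR). It stayed at 1 with library size alone, limma-voom, a filter of 1 CPM, exon reads and an absolute log2 of at least 1. The WT time count of 1398 was 606 at an adjusted p below 0.01, 374 at an absolute log2 of at least 1 and 770 to 1511 with single libraries left out, lowest without WT at ZT14 replicate 1. It was also low without WT at ZT14 replicate 3 (880) and WT at ZT2 replicate 1 (924). The TG time count of 1862 was 1150 without both libraries, 757 at 0.01, 443 at an absolute log2 of at least 1 and 1127 to 1873 with single libraries left out. It was 1127 without TG at ZT2 replicate 3, 1223 without replicate 2 and 1230 without TG at ZT14 replicate 1. With the replicate block these counts were 1370 and 1829. Library size alone moved the split of higher to lower genes from 739 and 659 to 1022 and 498 in WT, and from 1021 and 841 to 1265 and 685 in TG. Of 96 named genes, 8 with interactions near 0 or wide intervals changed sign in some setting. Clock was 0.04 with uniquely mapped and 0.03 with exon reads. Ciart was -0.08 with limma-voom, -0.45 with uniquely mapped and -0.54 with exon reads. With single libraries left out, Clock ranged from -0.08 to 0.05, Per2 from -0.34 to 0.16, Nr1d1 from -0.33 to 0.25, Ciart from -0.83 to 0.48, Bhlhe40 from -0.04 to 1.13, Hlf from -0.20 to 0.08, Nampt from -0.08 to 0.06 and Cyp7a1 from -0.34 to 0.25. The cause of these changes was not tested. The median standard error of 0.226 limits what 3 libraries a group can show for single genes.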
